A study of Mus musculus with 5 samples.

Results

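The values below concern 10 genes of the circadian clock, out of 31053 genes counted, across the cell types of the mouse heart. They are the activators Arntl, Clock and Npas2, the repressors Per1, Per2, Per3, Cry1 and Cry2, and the output genes Dbp and Nr1d1, each found by its symbol in the deposited feature tables. The genes were selected on readings of these same libraries: they were chosen by their fold changes between the groups, already known in endothelial-like, fibroblast-like, monocyte/macrophage-like and T cell-like cells, so those contrasts are described with no test. For these 10 genes, tests are given in mural-like, pericyte-like, B cell-like and, as an added alternative, neutrophil-like cells, on the same 5 libraries. Differences of fold changes between cell types are also descriptions, since each of those given includes a contrast by which the genes were chosen.

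Hearts of control mice, Ctla4+/+Pdcd1-/- (4 mice, 2 libraries, replicates 1 and 2), were compared with hearts of disease mice, Ctla4+/-Pdcd1-/- (10 mice, 3 libraries, replicates 3, 4 and 5), which carry 1 intact copy of Ctla4 and serve the submitters as a model of the myocarditis seen under immune checkpoint inhibitors. Pdcd1, the gene of the checkpoint receptor PD-1, is labelled -/- in both groups, so neither group is labelled wild type. Digested hearts were pooled, live nucleated cells were sorted as DRAQ5+DAPI-, and libraries were made with the 10x Genomics 5' chemistry. Some sample labels write Pdcd2-/- or Pdcd3-/- and DRAQ6 to DRAQ9 in the same places, and the series' design text, which gives Pdcd1-/- and DRAQ5+ throughout, was followed. Age, sex, strain, and the time of day and day of collection are not given in the sources used here, so a difference in collection time and a difference between genotypes cannot be told apart in any contrast below. Nothing says that libraries of a group came from separate mice, so p-values measure only the spread between these libraries.

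In the textbook scheme, BMAL1, the protein of Arntl, pairs with CLOCK or its paralogue NPAS2 and activates the Per, Cry, Nr1d1 and Dbp genes through E-box sequences. PER and CRY proteins then repress that pair, and REV-ERB-alpha, the protein of Nr1d1, represses Arntl through ROR elements, while DBP activates genes with D-boxes. Because of these loops, Arntl transcripts run nearly opposite in phase to Dbp, Nr1d1 and Per transcripts, Cry1 peaks later than the Per genes, and cells of the heart, vessels and immune system each keep such a clock.

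Sequences near the start sites of these genes are shown because that scheme names 3 kinds of motif: E-boxes, D-boxes and ROR elements. RefSeq promoter windows of 300 bases (250 before and 50 after the start site, build GRCm38.p6) were matched for 9 of the 10 genes, with 13 windows in all; Per2 was not matched. Each window was searched on both strands for the E-box CACGTG, the D-box TTATGTAA and the core of a ROR element, TAGGTCA. No motif overlaps another. Among all 32851 windows, 7.15% held the E-box, 0.938% the D-box and 2.61% the ROR element core. A match is a description of letters, and no match says only that these letters are not in this window. The 250 bases before the start site of Cry1, the gene on which the comparison between cell types turns, lie at chr10:85185055-85185304 on the minus strand and hold an E-box, in capitals, whose first base is at -60 from the start site.
Cry1 promoter: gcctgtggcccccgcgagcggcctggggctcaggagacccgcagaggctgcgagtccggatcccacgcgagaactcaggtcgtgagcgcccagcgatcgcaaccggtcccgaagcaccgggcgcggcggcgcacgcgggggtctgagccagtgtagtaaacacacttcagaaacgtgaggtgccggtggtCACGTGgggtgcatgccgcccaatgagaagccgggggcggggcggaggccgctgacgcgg

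Of the 9 matched genes, 4 held any of the 3 motifs. Over all 27025 genes with windows, 8.09% held the E-box, 1.11% the D-box and 2.97% the ROR element core. The share with any of the 3 was not computed, so nothing is read from this count. The windows below show the motif in capitals with 10 bases on each side, 5' to 3' on the gene's strand. The E-box of Per1 lies on the plus strand at chr11:69098783-69098788, at -166 from the first of its 2 start sites. Both D-boxes of Per3 lie on the minus strand, at chr4:151044863-151044870 and chr4:151044816-151044823, -205 and -158 from its start site. The ROR element core of Arntl lies on the plus strand at chr7:113207541-113207547, at 31 after the second of its 2 start sites.
Per1 E-box: cacccaagtcCACGTGcagggatgtg
Per3 D-box, distal: gacccgcgcgTTATGTAAggtactcggg
Per3 D-box, proximal: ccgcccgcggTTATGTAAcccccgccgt
Arntl ROR element core: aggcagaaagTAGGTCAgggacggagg

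The libraries held 24991704 to 55053988 UMIs (unique molecular identifiers, 1 per captured RNA molecule), and 37138 of 47319 barcodes were kept as cells, with a median of 3336.5 to 4540 UMIs per cell. Cell types were assigned from UMIs of marker genes: 13825 endothelial-like, 10462 fibroblast-like, 4821 monocyte/macrophage-like, 3614 T cell-like, 1096 B cell-like, 404 mural-like, 191 neutrophil-like, 141 Schwann-like, 116 dendritic-like and 95 NK cell-like cells. Markers that had not been used for the assignment were higher in each of these 10 types than in the other cells in 5 of 5 libraries. T cell-like cells varied widely in number, with 567 and 80 in the control libraries, against 124, 2265 and 578 in the disease libraries. Levels are given as CPM, the usual scaling of a gene's UMIs to the total UMIs of the cell type in that library. In T cell-like cells the control libraries (replicates 1 and 2) held Ctla4 at 425 and 74.9 CPM, and the disease libraries (replicates 3, 4 and 5) at 156, 656 and 542 CPM. Pdcd1, a target in either group, had 581 and 83.2 CPM against 263, 1076 and 831 CPM. The part of either gene that was targeted is not given in the sources used here, so these counts do not check the genotypes. In sums over the cells of a type, fewer cells that express a gene and less RNA per cell cannot be told apart.

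The orders of levels below leave out 33 mesothelial-like cells, 1 to 12 per library, which held Dbp at 506 and 0 CPM in the control libraries, against 596, 528 and 778 CPM (142 UMIs in all), Nr1d1 at a median of 277 CPM (74 UMIs) and Per3 at a median of 35.2 CPM (10 UMIs). All 3 medians were above those of the types described next. Npas2, the paralogue of Clock, was at 9.05 to 22.2 CPM in fibroblast-like cells over the 5 libraries and at no more than 4.69 CPM in mural-like cells, the next in order, with no overlap; 1 UMI in neutrophil-like cells came to 15.5 CPM in its library. In endothelial-like cells its 12 UMIs came to at most 0.444 CPM, in monocyte/macrophage-like cells 11 UMIs to at most 0.712 CPM, and in B cell-like cells there were 0 UMIs in every library. Cry2, a repressor, was highest in mural-like cells, at a median of 36.2 CPM (25.8 to 36.7), above the highest value of the next type in order, although NK cell-like cells (5 UMIs in all) reached 56.8 CPM and mesothelial-like cells (10 UMIs) 72.6 CPM in 1 library each. In monocyte/macrophage-like cells Cry2 was at 1.5 to 3.04 CPM.

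The 2 output genes shared an order. Dbp, a transcription factor that acts on D-boxes, had a median of 279 CPM in endothelial-like cells (96.2 to 390), followed by mural-like cells at 234 CPM (149 to 366) and fibroblast-like cells at 118 CPM (36.6 to 145). The ranges of endothelial-like and mural-like cells overlapped, and those of mural-like and fibroblast-like cells did not. In both control libraries Dbp was higher in mural-like cells, at 149 and 160 CPM, than in endothelial-like cells, at 96.2 and 106 CPM. In every disease library it was higher in endothelial-like cells. Monocyte/macrophage-like cells had a median of 29.0 CPM (24.8 to 74.1), T cell-like cells 13 CPM (7.41 to 16.6) and B cell-like cells 10.6 CPM (8.32 to 13.2), the last 2 overlapping. Nr1d1, the nuclear receptor that represses Arntl, had medians of 164, 124 and 103 CPM in endothelial-like, mural-like and fibroblast-like cells, 23.3 CPM in monocyte/macrophage-like cells, and 5.41 and 3.77 CPM in T cell-like and B cell-like cells. In control replicate 1 it was higher in mural-like cells (104 CPM) than in endothelial-like cells (93.4 CPM). In the other libraries Nr1d1 was higher in endothelial-like cells. The 52 Dbp UMIs and 50 Nr1d1 UMIs of Schwann-like cells put them among the upper types, with medians of 107 and 153 CPM and wide ranges of 39.3 to 336 and 78.6 to 203 CPM.

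Clock was at 53.2 CPM (23.5 to 61.8) in mural-like, 42.2 CPM (33.7 to 48.7) in fibroblast-like and 41.8 CPM (39.0 to 57.9) in endothelial-like cells, with overlapping ranges, above the 25.2 CPM (18.7 to 34.0) of monocyte/macrophage-like cells. Arntl had overlapping ranges between neighbours throughout. Per3 was at a median of 23.5 CPM (17.2 to 25.4) in endothelial-like cells and at a median of 0.294 CPM in T cell-like cells, where 15 UMIs were counted in all. Per2 had medians of 21.8 CPM in mural-like and 18.9 CPM in endothelial-like cells, 9.00 CPM in fibroblast-like and 4.88 CPM in monocyte/macrophage-like cells, and the last 2 ranges did not overlap each other. Per1, which responds to acute signals as well as to the clock, departed from this order: neutrophil-like cells had its highest median, 177 CPM (63.4 to 248), and T cell-like cells were at 66.5 to 79.4 CPM, within the range of endothelial-like cells.

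**Figure D1:**
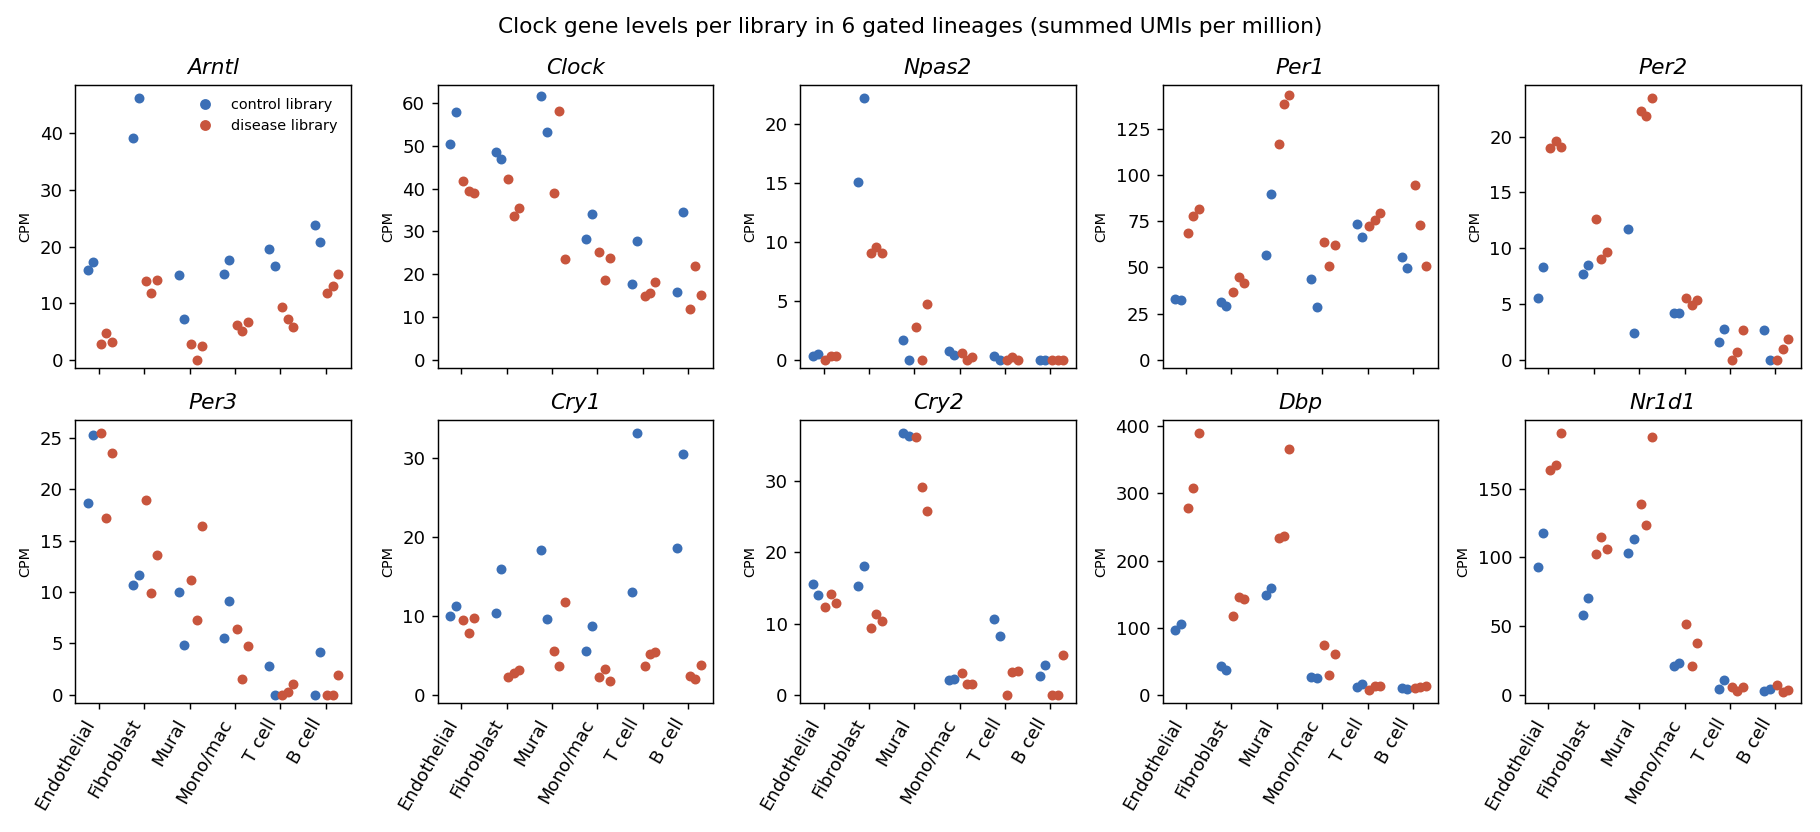
Level of each of the 10 clock genes (y axis, CPM of summed UMIs, a scale of its own in each panel) in 6 cell types (x axis); each point is 1 library, blue for the 2 control and red for the 3 disease libraries. Npas2 is above 9 CPM only in fibroblast-like cells among these types, Dbp and Nr1d1 are lowest in T cell-like and B cell-like cells, and Arntl is lower in each disease library than in each control library in all 6 types.

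Arntl, whose protein BMAL1 is the required partner in the activating pair, was lower in every disease library than in every control library in each of the 6 main cell types. Endothelial-like cells held it at 15.9 and 17.3 CPM in the control replicates (1 and 2), against 2.79, 4.64 and 3.1 CPM in disease replicates 3, 4 and 5. Fibroblast-like cells had 39.3 and 46.3 CPM against 13.9, 11.8 and 14.1 CPM. The log2 fold changes, disease over control, were -2.32 (SE 0.22, n = 2 and 3 libraries) in endothelial-like and -1.72 (SE 0.13) in fibroblast-like cells. Monocyte/macrophage-like cells had 15.2 and 17.6 CPM against 6.09, 5.04 and 6.75 CPM, a log2 fold change of -1.35 (SE 0.22), and T cell-like cells had 19.7 and 16.6 CPM against 9.27, 7.26 and 5.74 CPM, a log2 fold change of -1.44 (SE 0.41). Mural-like cells held 9 and 3 Arntl UMIs in the control libraries, against 1, 0 and 1 in the disease libraries, which was too few for the filter on low counts.

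The other activators differed by smaller amounts. Clock in endothelial-like cells was at 50.5 and 57.9 CPM against 41.8, 39.5 and 39.0 CPM (log2 fold change -0.49, SE 0.11), and in fibroblast-like cells at 48.7 and 47.0 CPM against 42.2, 33.7 and 35.4 CPM (-0.41, SE 0.14), with no overlap of the groups in either. Npas2 in fibroblast-like cells was at 15.1 and 22.2 CPM against 9.06, 9.56 and 9.05 CPM, a log2 fold change of -1.04 (SE 0.18). Its groups did not overlap, and the difference was -0.43 after a trend on GC content was removed; Npas2 has the highest GC share of the 10 genes, 73.2% in the first 300 transcript bases.

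Dbp lay in the other direction. Endothelial-like cells had 96.2 and 106 CPM in the control and 279, 308 and 390 CPM in the disease libraries, and fibroblast-like cells 43.1 and 36.6 CPM against 118, 145 and 142 CPM. The log2 fold changes of Dbp were 1.63 (SE 0.17) and 1.71 (SE 0.16), and 1.17 (SE 0.35) in monocyte/macrophage-like cells, where disease replicate 4, at 29.0 CPM, was close to the control values of 25.9 and 24.8 CPM and the other 2 disease libraries were at 74.1 and 61.3 CPM. T cell-like cells had 11.5 and 16.6 CPM against 7.41, 13 and 13.9 CPM, and the groups overlapped. B cell-like cells had 10.6 and 8.32 CPM against 9.46, 11 and 13.2 CPM, from 4 to 11 UMIs per library, and overlapped as well. Nr1d1 was at 93.4 and 118 CPM against 164, 167 and 191 CPM in endothelial-like cells (log2 fold change 0.67, SE 0.14) and at 58.1 and 70.2 CPM against 103, 115 and 106 CPM in fibroblast-like cells (0.71, SE 0.12). In monocyte/macrophage-like cells Nr1d1 overlapped, at 21.3 and 23.3 CPM against 51.7, 20.7 and 37.9 CPM, with disease replicate 4 again the lowest of its group.

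The Per genes, whose proteins carry the CRY proteins in the repressor complex, were not alike. Per1 in endothelial-like cells was at 32.9 and 32.2 CPM against 68.4, 77.7 and 81.4 CPM, a log2 fold change of 1.17 (SE 0.11), and Per2 at 5.54 and 8.32 CPM against 18.9, 19.6 and 19.1 CPM, a log2 fold change of 1.42 (SE 0.19). In fibroblast-like cells Per1 was at 31.3 and 29.0 CPM against 36.4, 44.8 and 41.6 CPM (0.40, SE 0.13) and Per2 at 7.72 and 8.53 CPM against 12.6, 9.00 and 9.65 CPM (0.32, SE 0.19). Both genes were thus higher in all disease libraries of these 2 types, with a smaller distance in fibroblast-like cells. Per1 in T cell-like cells was at 73.6 and 66.5 CPM against 72.3, 75.8 and 79.4 CPM and overlapped. Per3 overlapped in endothelial-like cells, at 18.7 and 25.3 CPM against 25.4, 17.2 and 23.5 CPM (log2 fold change -0.04, SE 0.22), and in fibroblast-like cells (0.30, SE 0.29).

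Counted over the members, 7 of the 9 that passed the filter on low counts in endothelial-like cells had groups that did not overlap, 4 higher and 3 lower in disease, where 50.2% of 12607 genes did so (26.4% higher, 23.8% lower). In fibroblast-like cells 9 of 10 did (4 higher, 5 lower; 50.7% of 13435 genes, 25.5% higher and 25.2% lower). The count was 6 of 9 for monocyte/macrophage-like cells (3 higher, 3 lower; 36.5% of 11324 genes, 13.6% higher and 23% lower) and 3 of 7 for T cell-like cells, all lower (31.1% of 9692 genes, 19.7% lower). These counts describe contrasts that were known when the genes were chosen, and nothing is read from them. Without control replicate 1 the T cell-like count was 7 of 7, where 72.9% of all genes tested did not overlap.

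**Figure D2:**
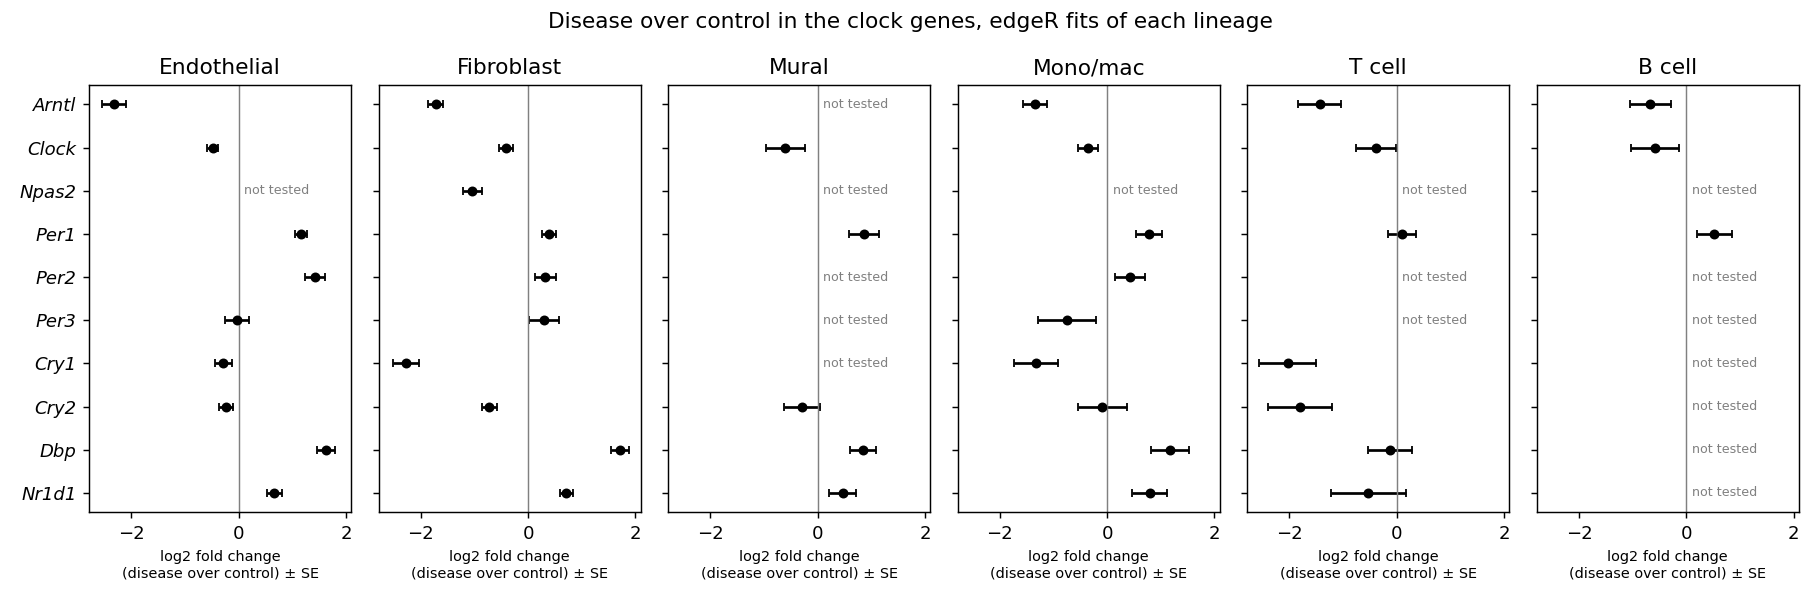
Log2 fold change, disease over control, of each clock gene (rows) in 6 cell types (panels), as points with bars of 1 SE from the edgeR fits to 2 control and 3 disease libraries; genes that failed the filter on low counts are marked as not tested. Arntl is left of 0 in the 5 panels where it was fitted, Dbp is right of 0 in endothelial-like, fibroblast-like, mural-like and monocyte/macrophage-like cells, and Cry1 is at -2.28 in fibroblast-like but -0.28 in endothelial-like cells.

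The ratio of Dbp to Arntl UMIs within a library puts both sides of the loop on 1 axis and does not depend on library scaling. In endothelial-like cells there were 6.07 and 6.12 Dbp UMIs for each Arntl UMI in control replicates 1 and 2, against 99.9, 66.3 and 126 in disease replicates 3, 4 and 5. Fibroblast-like cells had ratios of 1.10 and 0.790 against 8.48, 12.3 and 10.1, and monocyte/macrophage-like cells 1.71 and 1.41 against 12.2, 5.77 and 9.09. The groups were thus well apart in these 3 types. In T cell-like cells the ratios were 0.587 and 1.00 against 0.8, 1.80 and 2.41 and overlapped, and in B cell-like cells they were 0.444 and 0.400 against 0.8, 0.846 and 0.875 from 4 to 15 UMIs of each gene. Mural-like cells had ratios of 9.89 (95% counting interval 4.98 to 22.3) and 22 (7.21 to 109) against 84 (14.7 to 3357) and 156 (27.6 to 6201), with a lower bound of 17.1 in disease replicate 4, which had 65 Dbp and 0 Arntl UMIs. The 95% counting intervals of the B cell-like ratios overlapped, 0.127 to 1.09 in control replicate 2 and 0.343 to 2.05 in disease replicate 4.

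**Figure D3:**
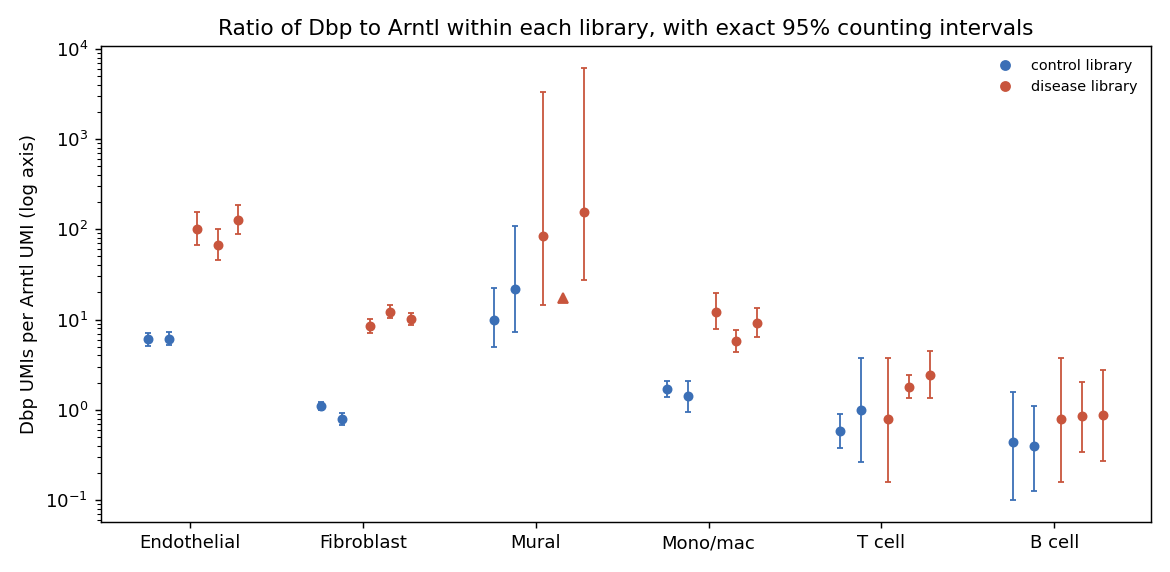
Dbp UMIs per Arntl UMI (y axis, log scale) in 6 cell types (x axis), 1 point per library, blue for control and red for disease, with exact 95% counting intervals; the triangle in mural-like cells is the lower bound for disease replicate 4, which had 0 Arntl UMIs. Endothelial-like cells lie at 6.07 and 6.12 in the control and at 66.3 to 126 in the disease libraries, and B cell-like cells lie below 1 in all 5 libraries.

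Cry1, the repressor that acts late in the cycle, differed between the groups in some cell types and hardly in others. Fibroblast-like cells held it at 10.4 and 16 CPM in the control replicates (214 and 137 UMIs), against 2.31, 2.76 and 3.14 CPM in disease replicates 3, 4 and 5 (24, 34 and 42 UMIs), a log2 fold change of -2.28 (SE 0.24). In endothelial-like cells the values were 10.0 and 11.3 CPM against 9.53, 7.90 and 9.69 CPM (107 and 102 against 82, 46 and 97 UMIs), a log2 fold change of -0.28 (SE 0.16). Every disease library was below both control libraries in either type. In control replicate 1 the 2 types were close, at 10.4 and 10.0 CPM. In control replicate 2 fibroblast-like cells were higher, at 16 against 11.3 CPM. The disease libraries of fibroblast-like cells were all below those of endothelial-like cells.

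Among immune cells, the types with more UMIs also had Cry1 lower in the disease libraries. Cry1 in B cell-like cells was at 18.6 and 30.5 CPM against 2.36, 1.99 and 3.77 CPM, from 7 and 22 UMIs against 1, 2 and 2. T cell-like cells had 13.1 and 33.3 CPM against 3.71, 5.20 and 5.41 CPM (log2 fold change -2.03, SE 0.53; -2.80 without control replicate 1 and -1.36 without control replicate 2), and monocyte/macrophage-like cells 5.60 and 8.78 CPM against 2.21, 3.23 and 1.79 CPM (-1.32, SE 0.41). In each of these 3 types every disease library was below both control libraries. Dendritic-like cells (3 and 0 UMIs against 0, 5 and 0) and NK cell-like cells (1 and 2 against 0, 0 and 1) overlapped. Mural-like cells held 11 and 4 Cry1 UMIs against 2, 1 and 5, at 18.4 and 9.68 CPM against 5.57, 3.64 and 11.7 CPM, and overlapped. Neutrophil-like cells held 2 and 1 Cry1 UMIs in the control libraries, against 0 in each disease library, where 3 counts would have been 23.8 to 77.7 CPM, so no difference was detectable at this depth. Schwann-like cells held 0 Cry1 UMIs in all 5 libraries, where 3 counts would have been 23.6 to 53.6 CPM, and endocardial-like cells held 0 as well.

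Cry2, the paralogue of Cry1, was at 15.3 and 18.1 CPM against 9.35, 11.3 and 10.4 CPM in fibroblast-like cells, a log2 fold change of -0.72 (SE 0.14) that was -0.24 with a GC trend removed. T cell-like cells had Cry2 at 10.6 and 8.32 CPM against 0, 3.24 and 3.38 CPM (-1.80, SE 0.59). Both types had Cry2 lower in every disease library, while in endothelial-like cells, at 15.6 and 14 CPM against 12.3, 14.1 and 12.9 CPM, the groups overlapped (-0.23, SE 0.12). That endothelial-like value turned positive with the GC trend removed.

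**Figure D4:**
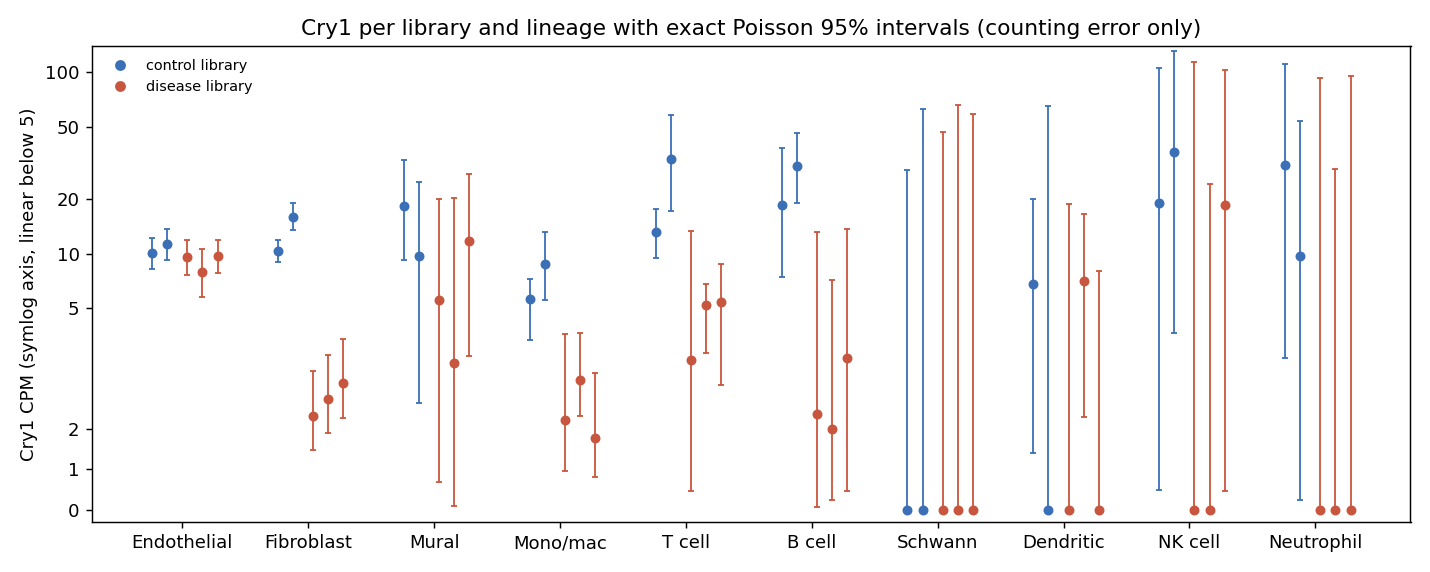
Cry1 level (y axis, CPM, linear below 5 and logarithmic above) in 10 cell types (x axis), 1 point per library, blue for control and red for disease, with exact Poisson 95% intervals that cover counting error only. The points of the groups are apart in fibroblast-like, monocyte/macrophage-like, T cell-like and B cell-like cells. They are apart by a small margin in endothelial-like cells, between 9.69 and 10.0 CPM. Some intervals of the groups overlap in all of these types but fibroblast-like cells. Intervals in the 4 types on the right are too wide to compare.

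The difference between 2 cell types in the log2 fold change of Cry1 was estimated in 1 fit over both, with the library as a block. These pairs were added after the Cry1 values were seen. Fibroblast-like minus endothelial-like cells gave -1.82 (SE 0.24), between -2.17 and -1.65 over 9 alternatives. B cell-like minus endothelial-like cells gave -3.07 (SE 0.75), between -3.29 and -2.65, from 34 Cry1 UMIs in B cell-like cells. T cell-like and monocyte/macrophage-like cells gave -1.67 (SE 0.50) and -1.10 (SE 0.41).

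Base composition moved with these fold changes. Over genes with a mean above 4 log2 CPM, log2 fold changes were lower at higher GC content of the first 300 transcript bases, with Spearman correlations across genes of -0.44 in fibroblast-like (6638 genes), -0.42 in endothelial-like (6839 genes) and -0.43 in B cell-like cells (5066 genes); genes are not independent replicates. Cry1 has 63.8% GC there, Arntl 58.3% and Dbp 58.0%, against a median of 58.5% in the fibroblast-like fit. With that trend removed, the fibroblast-like value of Cry1 was -1.85 and its endothelial-like value 0.13; Arntl had -1.65 and -2.21, and Dbp 1.79 and 1.73, in the same order. Over 13 alternatives Cry1 lay between -0.38 and 0.13 in endothelial-like cells and between -2.55 and -1.85 in fibroblast-like cells.

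Mural-like cells stand for the pericytes and smooth muscle cells of the vessel wall, and Dbp, Per1 and Nr1d1 were higher there in the disease libraries. The control replicates had Dbp at 149 and 160 CPM, against 234, 237 and 366 CPM in disease replicates 3, 4 and 5, from 65 to 156 UMIs per library. Per1 was at 56.8 and 89.5 CPM against 117, 138 and 143 CPM, and Nr1d1 at 104 and 114 CPM against 139, 124 and 188 CPM. All 3 genes were above both control libraries in every disease library, and Cry2 was lower in every disease library by a small margin, at 36.7 and 36.3 CPM against 36.2, 29.1 and 25.8 CPM. These 4 of the 5 members that passed the filter had groups that did not overlap, where 36.8% of 6059 genes did so (17.4% higher, 19.4% lower).

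None of those differences passed the threshold of 0.05 in the main fit. The log2 fold change was 0.85 for Dbp (SE 0.24, adjusted p by edgeR = 0.0699), 0.87 for Per1 (SE 0.27, adjusted p = 0.105), 0.47 for Nr1d1 (SE 0.25, adjusted p = 0.349), -0.60 for Clock (SE 0.37, adjusted p = 0.430) and -0.29 for Cry2 (SE 0.34, adjusted p = 0.725). edgeR thus called 0 of 5 members and DESeq2 0 of 5, where edgeR called 7.39% of genes. Of the 5 members, 2 had an unadjusted edgeR p under 0.05, as did 19.2% of all genes tested. With a GC trend removed, edgeR called Dbp and Per1, where it called 6.09% of genes, and the log2 fold change of Cry2 turned positive. For Dbp the adjusted p ranged from 0.0194 to 0.318 over 13 alternatives, and it was 0.0232 without disease replicate 4. Mural-like sums also held endothelial markers at 2137 to 2163 CPM in the control and 2476 to 2895 CPM in the disease libraries (9 of 9 markers detected), against 8544 to 9597 CPM in endothelial-like cells, and their part in these values was not tested.

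Dbp had a smaller log2 fold change in mural-like than in endothelial-like cells. The difference, with no test for the reason given in the opening, was -0.88 (SE 0.19), between -1.11 and -0.67 over 9 alternatives. For Per1 the difference was -0.36 (SE 0.25) and for Nr1d1 -0.30 (SE 0.22).

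Within these 2 types, the members were followed in subtypes split by further markers. Capillary endothelial-like cells (11714 cells) made up most of the endothelial-like cells and had their values: Dbp at 94.9 and 105 CPM against 276, 311 and 393 CPM, a log2 fold change of 1.64 (SE 0.17), and 8 of 9 members with groups that did not overlap (4 higher and 4 lower; 50% of 12258 genes, 26.3% higher and 23.7% lower). Arterial endothelial-like cells (358 cells) had Dbp at 137 and 98.5 CPM against 399, 469 and 556 CPM, a log2 fold change of 1.99 (SE 0.28), and Per1 at 40.7 and 49.3 CPM against 88.7, 101 and 129 CPM (1.24, SE 0.37). Dbp was higher in all 3 arterial disease libraries than in the capillary cells of the same libraries. There, 3 of 4 members had groups that did not overlap, all higher (36.1% of 3699 genes, 16.7% higher).

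Endocardial-like, lymphatic and smooth muscle-like cells had too few cells for a fit and are given as levels and counts, and pericyte-like cells were fitted. Endocardial-like cells (129 cells) had Dbp at 171 and 217 CPM against 354, 310 and 308 CPM from 20 to 41 UMIs per library, and the groups did not overlap. Lymphatic endothelial-like cells (73 cells) had 10 and 2 Dbp UMIs against 2, 1 and 6, or 84.6 and 34.3 CPM against 39.6, 22.4 and 155 CPM, which overlapped. Pericyte-like cells (237 cells) had Dbp at 177 and 260 CPM against 306, 214 and 381 CPM (log2 fold change 0.47, SE 0.30, adjusted p by edgeR = 0.504, 0.257 to 0.853 over 5 alternatives) and Per1 at 80.6 and 81.3 CPM against 127, 138 and 118 CPM (0.63, SE 0.30, adjusted p = 0.341). edgeR called 0 of 4 members in pericyte-like cells, with 0 at an unadjusted p under 0.05 (16.8% of all genes), where it called 5.47% of 3562 genes; 1 of the 4 had groups that did not overlap (34.6% of genes). Smooth muscle-like cells (78 cells) had Dbp at 59.6 and 93.9 CPM against 225, 219 and 155 CPM from 9 to 16 UMIs per library, and did not overlap. Endothelial markers in the smooth muscle-like sums were also higher in every disease library, at 946 to 1912 against 721 to 759 CPM, and their part in the Dbp values was not tested.

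**Figure D5:**
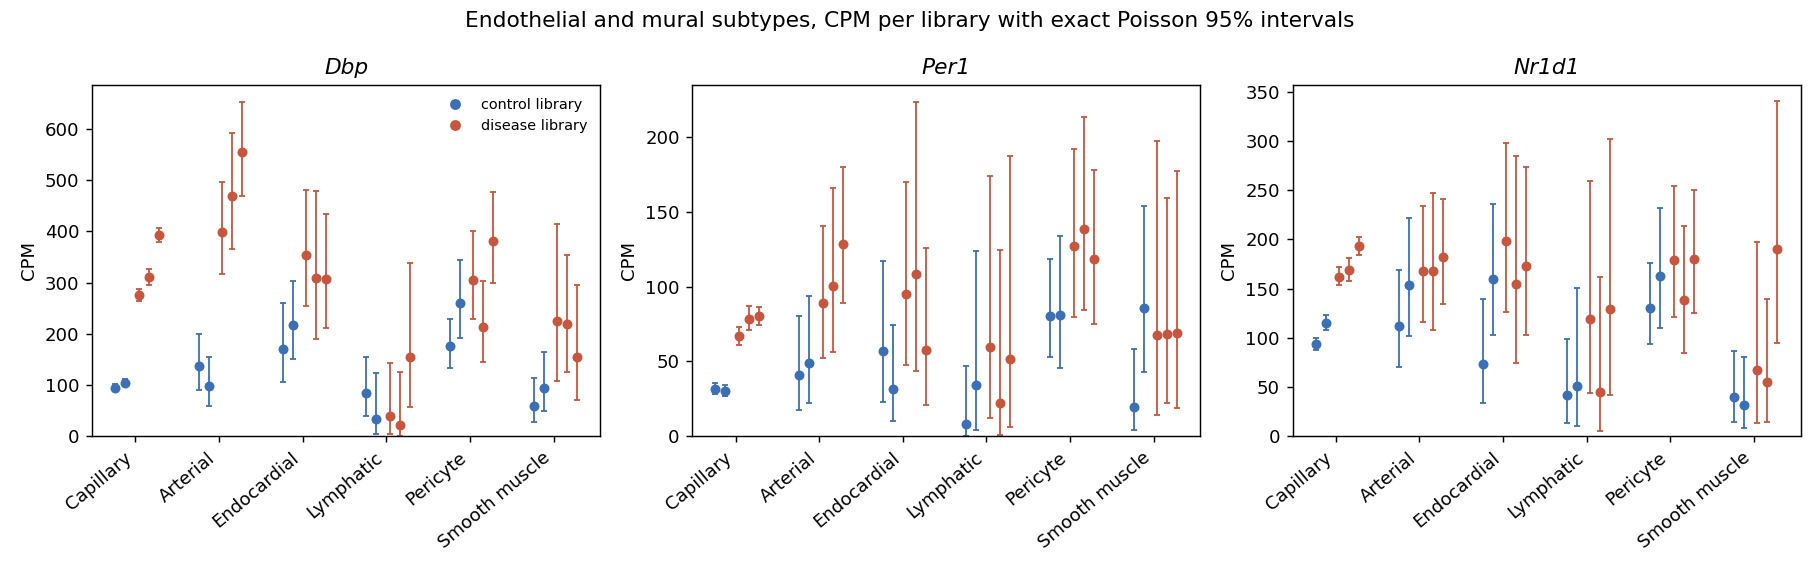
Dbp, Per1 and Nr1d1 (panels) in 4 endothelial and 2 mural subtypes (x axis), as CPM (y axis) with exact Poisson 95% intervals that cover counting error only, 1 point per library, blue for control and red for disease. The Dbp points of the groups are apart in capillary, arterial, endocardial and smooth muscle-like cells and overlap in lymphatic and pericyte-like cells. In smooth muscle-like cells some counting intervals of the groups overlap.

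B cell-like cells had Arntl and Cry1 lower in every disease library than in both control libraries, with Dbp overlapping. The control replicates had Arntl at 23.9 and 20.8 CPM, against 11.8, 12.9 and 15.1 CPM in disease replicates 3, 4 and 5, from 5 to 15 UMIs per library. Its groups did not overlap, and its log2 fold change was -0.67 (SE 0.38, adjusted p by edgeR = 0.368, 0.269 to 0.799 over 11 alternatives). Per1 was at 55.7 and 49.9 CPM against 94.6, 72.7 and 50.9 CPM (0.52, SE 0.33, adjusted p = 0.410), and Clock at 15.9 and 34.7 CPM against 11.8, 21.9 and 15.1 CPM (-0.59, SE 0.45, adjusted p = 0.505). Both overlapped. edgeR called 0 of the 3 members that passed the filter and DESeq2 0 of 3, with 0 at an unadjusted edgeR p under 0.05 (22.2% of all genes), where edgeR called 8.72% of 5106 genes and the groups did not overlap in 38.1%. B cell-like sums also held endothelial markers at 107 to 114 CPM in the control and 118 to 223 CPM in the disease libraries. Dendritic markers were at 796 to 887 against 920 to 1001 CPM. NK cell markers were higher as well, and those of the other types overlapped. Their part in the clock values was not tested.

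Cry1 failed that filter in B cell-like cells. With no filter on low counts its log2 fold change was -3.09 (SE 0.72, adjusted p = 0.000526 over all genes), where edgeR called 6.97% of genes. B cell-like minus T cell-like cells gave a Cry1 difference of -1.01 (SE 0.83).

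Neutrophil-like cells, short-lived granulocytes, held few clock UMIs other than those of Per1, out of 38596 to 126084 UMIs per library. At that depth 3 counts would be 23.8 to 77.7 CPM, so these small counts do not show a low level. Per1 had 16 and 15 UMIs in the control libraries, against 7, 8 and 9 in the disease libraries, at 248 and 146 CPM against 177, 63.4 and 233 CPM, and overlapped. Dbp had 4 UMIs in all, Arntl 3, Cry1 3, Nr1d1 2 and Clock 4, all 4 of Clock in control replicate 1. A fit was not made because disease replicate 3 held 18 of these cells, under the minimum of 20. With those cells accepted, an alternative added after the data were seen, Per1 had a log2 fold change of -0.57 (SE 0.58, adjusted p by edgeR = 0.713). Neutrophil-like minus monocyte/macrophage-like cells, with the same 18 cells included, gave a Per1 difference of -1.57 (SE 0.61).

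A list of 20 further clock genes, which holds regulators of the same loops and the kinases and ligases that act on PER and CRY proteins, was counted in the same fits. The list was drawn up with earlier results of these libraries known, so its counts and p-values are not independent of that choice and support nothing about the members. In endothelial-like cells 5 of 19 tested rose and 3 fell, with a median log2 fold change of 0.10 against 0.01 over all genes tested, where edgeR called 0.42% of genes higher and 11.5% lower. Those that rose were Ciart, a repressor of the activating pair (1.77, SE 0.14, adjusted p = 0.00118), Bhlhe41 (1.97, SE 0.40, adjusted p = 0.0299) and Bhlhe40 (0.72, SE 0.12, adjusted p = 0.0169), which compete for E-boxes, and Hlf (1.82, SE 0.22, adjusted p = 0.00469) and Tef (0.75, SE 0.17, adjusted p = 0.0445), relatives of Dbp. Rora, an activator of Arntl, fell by 0.45 (SE 0.10, adjusted p = 0.0421), as did the kinase genes Gsk3b (-0.68, SE 0.12, adjusted p = 0.0212) and Csnk1a1 (-0.79, SE 0.08, adjusted p = 0.00282). All are edgeR values.

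In fibroblast-like cells 2 of 19 rose, Ciart (1.25, SE 0.19, adjusted p = 0.0112) and Hlf (0.78, SE 0.13, adjusted p = 0.0144), and 2 fell, Gsk3b (-0.69, adjusted p = 0.0106) and Csnk1a1 (-0.85, adjusted p = 0.00898), where 0.372% of genes were called higher and 12.6% lower. In mural-like cells, where no member passed, 2 of 14 rose, Bhlhe40 (1.20, SE 0.28, adjusted p = 0.0271) and Hlf (1.47, SE 0.37, adjusted p = 0.0420), and Csnk1a1 fell (-0.83, SE 0.20, adjusted p = 0.0351), against 0.297% called higher and 7.1% lower. Monocyte/macrophage-like cells had 1 of 18 called, Bhlhe40, which rose by 1.23 (SE 0.23, adjusted p = 0.0281; 0.185% called higher), and T cell-like cells 1 of 18, Csnk1a1, which fell by 1.28 (adjusted p = 0.0279; 5.44% called lower). B cell-like cells had 2 of 9, Fbxw11, a ubiquitin ligase subunit that acts on PER proteins (-2.11, SE 0.39, adjusted p = 0.0202), and Csnk1a1 (-1.25, SE 0.24, adjusted p = 0.0247), both lower, where 8.56% of genes were called lower.

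Other measures moved between the groups beside the clock genes, and their part in the clock values was not tested. The summed level of 11 immediate-early genes, such as Fos and Jun, which rise with handling and digestion, was lower in every disease library of endothelial-like cells (8673 to 11086 CPM against 11431 to 12777 CPM) and of fibroblast-like cells (15086 to 17174 against 19335 to 20043 CPM). It was also lower without overlap in monocyte/macrophage-like, T cell-like, B cell-like and neutrophil-like cells, and it overlapped in mural-like cells (23567 to 29261 against 25704 to 26117 CPM). Single genes of this list were mixed. For endothelial-like cells 7 of the 11 had a log2 fold change above 0 (median 0.04), so the lower sum does not describe most of them. The number above 0 was also 7 for mural-like, then 5 for B cell-like, 4 for T cell-like, 3 for fibroblast-like and 1 for monocyte/macrophage-like cells. A list of 9 glucocorticoid-induced genes, such as Tsc22d3 and Fkbp5, summed to 1668 to 1980 CPM in the disease and 1336 to 1580 CPM in the control libraries of endothelial-like cells, and the groups overlapped in fibroblast-like (3112 to 3813 against 2575 to 3288 CPM) and mural-like cells. In B cell-like cells it was higher in every disease library, at 967 to 1179 against 756 to 958 CPM. Summed cardiomyocyte genes, a sign of free RNA, were at 882 to 1270 CPM in the disease and 1269 to 1346 CPM in the control libraries of endothelial-like cells and at no more than 72.6 CPM in fibroblast-like cells.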

How the data were processed

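Single-cell RNA-seq was analysed from 5 libraries of mouse heart cells, 2 control and 3 disease. The deposited values are raw UMI counts per gene and barcode, which the file headers attribute to Cell Ranger 3.1.0, run by the authors. Cell Ranger 3, Seurat 3 and the builds mm10 and GRCh38 are named, with no role, per the submitters' processing notes. The clock genes and gene lists were chosen with earlier results of these data known.

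Barcodes with at least 500 UMIs, 200 genes and at most 10% mitochondrial UMIs were kept. Scrublet (scanpy 1.11.5) removed 1174 doublets (3.06%); its automatic threshold marked 0.0716% in control replicate 2, where the median threshold of the other libraries was used instead. In all, 1196 barcodes occurred in 2 libraries and 12 in 3 or more, and were treated as separate cells. A cell was assigned to a type with at least 3 UMIs over 2 markers and 3 times the UMIs of any other type, and to a subtype with 2 UMIs and 2 times. This left 1674 cells ambiguous and 666 unassigned.

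Counts were summed per library and cell type, and libraries were the replicates. With at least 20 cells in every library, sums were tested with edgeR 4.0.16 (R 4.3.3; low-count filter, TMM scaling, quasi-likelihood test, Benjamini-Hochberg adjustment over all genes, threshold 0.05). Differences between cell types were estimated as an interaction with the library as a block, and the neutrophil-like one included a library with 18 such cells. DESeq2 1.42.0, plain totals, no filter, other gates, 25% mitochondrial UMIs, doublets kept, removal of a GC trend and leaving out each library were the alternatives. The tests were checked on simulated data. All 10 members were named by rule, and of the list of further clock genes those called. CPM intervals are exact 95% Poisson intervals, and they and the floor of 3 counts cover counting error only.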

Additional observations from a re-analysis of the deposited data

Results flagged for a closer look

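The 3 differences below, between 2 cell types in the log2 fold change, disease over control, were flagged by an adjusted edgeR p under 0.05. Those p-values are no valid test here. Dbp had a mural-like minus endothelial-like difference of -0.88, between -1.02 and -0.76 when single libraries were left out. Cry1 had a fibroblast-like minus endothelial-like difference of -1.82 and a B cell-like minus endothelial-like difference of -3.07. Both Cry1 pairs were picked from the same values. The endothelial-like contrast, which enters all 3, had already been used to choose the genes, so all 3 are descriptions that no test supports.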

How the results depend on the processing

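No paired analysis was possible because the groups share no replicate numbers. In mural-like cells the count of members called rose from 0 to 1, Dbp, with no filter on low counts, a looser gate or up to 25% mitochondrial UMIs, where 5.09%, 7.47% and 7.36% of all genes were called. It was 2, Dbp and Per1, with the GC trend removed (6.09% of genes), and 0 to 1 over the libraries left out (3.16% to 8.27%). In B cell-like cells it was 1, Cry1, with no filter (6.97% of genes) and with 25% mitochondrial UMIs (8.58%), and 0 to 1 over the libraries left out (0.778% to 9.09%). Outside the fit with no filter, Cry1 had passed the low-count filter through its control libraries, so those calls are no support. The T cell-like count of members whose groups do not overlap was 5 with a stricter gate and with 25% mitochondrial UMIs, where 31.8% and 30.9% of all genes tested did not overlap, and 3 to 7 over the libraries left out, where that share was 37.3% to 72.9%. Differences between cell types have no valid test here, because the genes were chosen by contrasts that enter them, and their counts of calls only describe the fits. The count of 1 for mural-like minus endothelial-like cells (0.131% of all genes called) was 0 with a looser gate (0.234%) and 0 to 1 over the libraries left out (0.0249% to 0.181%). For fibroblast-like minus endothelial-like cells the count of 1 (0.228%) was 2 with plain library totals (0.135%), 4 with no filter (1.54%) and 0 to 3 over the libraries left out (0.0504% to 2.16%). For B cell-like minus endothelial-like cells the count of 1 (0.346%) was 0 with a stricter gate (0.378%) and 0 to 1 over the libraries left out (0.0408% to 0.622%). For T cell-like minus endothelial-like cells the count of 0 (0.0150%) was 1 with no filter (0.171%) and 0 to 1 over the libraries left out (0.0146% to 1.12%). The median Dbp level in B cell-like cells was 8.27 CPM with equal cell weights. With the GC trend removed the log2 fold change turned positive for Cry2 in mural-like (0.14), endothelial-like (0.24) and monocyte/macrophage-like cells (0.28), and for Cry1 (0.13) and Per3 (0.55) in endothelial-like cells. Per3 in endothelial-like cells, at -0.04, also turned positive without control replicate 2 (0.18), without disease replicate 4 (0.10) and with plain library totals (0.01). Cry2 in monocyte/macrophage-like cells, at -0.09, did so without disease replicate 5 (0.04) and with 25% mitochondrial UMIs (0.02). Dbp in T cell-like cells, at -0.13, did so without control replicate 2 (0.10), with a looser gate (0.02) and, by under 0.01, without disease replicate 3. Clock in B cell-like cells did so without control replicate 2 (0.16), the upper end of its range of -0.89 to 0.16 over the libraries left out. Per3 in capillary-like cells, at 0.01, turned negative without control replicate 1 (-0.19), disease replicate 3 (-0.11) or disease replicate 5 (-0.02), and Clock in arterial-like cells, at 0.20, without disease replicate 4 (-0.06). The cause was not tested. Fits in neutrophil-like, NK cell-like and dendritic-like cells alone were not run as planned, with under 20 cells in a library, apart from the added neutrophil-like fit, and depth there limits what can be seen.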

Other observations

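Among the rarer cell types, Schwann-like cells had Dbp at 39.3 and 67.8 CPM in the control libraries, against 204, 107 and 336 CPM in the disease libraries, from 4 to 21 UMIs, with no overlap, while Arntl had 5 and 3 UMIs against 0, 0 and 1. Endothelial markers (33.9 to 102 CPM in the control, 107 to 320 CPM in the disease libraries) and mural markers (84.7 to 94.3 against 166 to 179 CPM) were higher in the same disease libraries, and their part in the Dbp values was not tested. Dendritic-like cells held 104 Per1 UMIs in all against 7 Dbp and 8 Cry1 UMIs. NK cell-like cells held 4 and 4 Dbp UMIs in the control libraries, against 0, 2 and 1 in the disease libraries.

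The genes whose levels followed Cry1 most closely within cell types, over 30 sums of a cell type in a library and among 1812 candidate genes, were Sf1 (correlation 0.89), Hnrnpu (0.88) and Hnrnpab (0.88), which encode RNA-binding proteins. The points share libraries, depth and base composition.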
